A study of Mus musculus with 15 samples.

Results

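The semaphorins, plexins, ephrins, Eph receptors, Slits, Robo receptors, netrins and Unc5 receptors are the families through which growing axons and growing vessels read attractive and repulsive cues. They were described here across 3 populations sorted from a mouse melanoma, which the study describes as endothelial. Members were taken by gene symbol from a table of 53465 genes. Of 65 symbols that matched these families, 63 averaged 5 or more normalized counts across the 15 libraries and were kept. *Epha8* and *Ntn5*, with population means of 1.62 to 2.22 and 0.469 to 2.05, fell below that minimum. The members comprised 7 secreted class 3 semaphorins, 13 membrane-bound semaphorins of classes 4 to 7, 9 plexins, 5 ephrin-A and 3 ephrin-B ligands, 8 EphA and 5 EphB receptors, 3 Slits, 4 Robo receptors, 2 netrins and 4 Unc5 receptors. Of these, 57 reached the minimum in each of the 3 populations. The other 6 (*Ephb2*, *Ephb3*, *Slit1*, *Sema6c*, *Efna2* and *Efna3*) fell below it in D and passed through their level in EVP and TA, so a difference from D was partly built into their selection.

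Tumors of B16-F0, a mouse melanoma cell line, were grown in CAG-GFP mice, which express GFP in all tissues, and were collected on day 15. The study used males and females 8 to 14 weeks old. GFP+ cells negative for hematopoietic lineage markers and positive for CD34 were sorted into endovascular progenitors (EVP, low CD31 and low VEGFR2), transit amplifying cells (TA, intermediate CD31 and low VEGFR2) and definitive differentiated cells (D, high CD31 and high VEGFR2), with 5 libraries of each. All 3 populations came from tumor-bearing mice, and vessels without a tumor were not analysed here. The promoter of GFP does not restrict it to endothelium, so GFP marks host cells of any type. Melanoma transcripts were nevertheless present in every sorted library, with 8 markers summing to 19171 to 50434 in D, the population with the least. The labels do not say whether libraries of the same number shared an animal or whether animals were pooled, so p-values measure the spread between these libraries.

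Semaphorins signal through plexins, for the class 3 members mostly together with neuropilins, and most often collapse the cytoskeleton of the cell that receives them. Ephrins and Eph receptors are both tethered to membranes and signal in both directions when cells touch. In vessels, ephrin-B2 is known as an arterial and EphB4 as a venous protein. Slits bind receptors of the Robo family, whose endothelial member is Robo4, though whether Slits bind Robo4 itself is not addressed here. Netrins bind Unc5 receptors, of which Unc5b is found on tip cells and arteries.

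Depth ranged from 5394356 to 26513073 reads on genes per library. In EVP replicate 1, the shallowest library, 98.3% of 1106 olfactory receptor genes, which serve here as genes that should be silent, had a read, at 39.9 normalized counts per kb of exon. TA replicate 1 and D replicate 1 followed with 9.05 and 6.57 per kb. In EVP replicate 1, 40 of the 63 members lay at or below that library's level. The labelled cell types were checked against marker lists, which are given as sums of normalized counts. The pan-endothelial list includes *Pecam1* and *Kdr*, which encode CD31 and VEGFR2, so part of its difference between the gates was set by the sort. *Cd34*, the sort marker common to all 3 gates, read 9968 to 30302 in EVP and 22198 to 32082 in D. The 12 pan-endothelial markers summed to 2533 to 5785 in EVP, 8793 to 89932 in TA and 125591 to 208504 in D, and 12 fibroblast markers to 883365 to 1579650, 201319 to 630233 and 1193 to 4388. The EVP libraries thus held the defining endothelial transcripts at a low level (*Cdh5*, 18.3 to 183 normalized counts) and collagen transcripts at a very high one (*Col1a1*, 255698 to 312700), and the names EVP, TA and D are used here for the sorted gates. In bulk libraries, fewer cells of a type and less RNA per cell cannot be told apart.

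Promoters of members with large differences between EVP and D are shown first. For each direction they are the first 3 of the 6 largest changes that met a rule. The RefSeq window had to hold at least 150 bases before both the RefSeq and the GENCODE start of the gene. *Slit3*, *Sema3c*, *Sema3f* and *Efna1* had larger changes than some of those shown and did not meet it. *Ephb3* and *Efna2*, which are shown, fell below the minimum in D, so their difference was partly built into their selection. The sequences are from RefSeq on GRCm38.p6 and are written 5′ to 3′ on the strand of the gene. Capitals mark matches to any of 6 letter strings, each searched on both strands. The string of ETS factors was searched as CCGGAAG and, in another form of the same site, as CAGGAAG. That of RBPJ, the factor of Notch signaling, was GTGGGAA. That of SOX factors was AACAAT. The GC box was searched by its letters GGGCGG and the TATA box by the letters TATAAA. The first 3 belong to members higher in D, the single-span receptor Robo4 (chr9:37401722-37401896, plus strand), the semaphorin Sema3g (chr14:31217623-31217859, plus strand) and the plexin of class D (chr6:115995006-115995255, minus strand).
Robo4: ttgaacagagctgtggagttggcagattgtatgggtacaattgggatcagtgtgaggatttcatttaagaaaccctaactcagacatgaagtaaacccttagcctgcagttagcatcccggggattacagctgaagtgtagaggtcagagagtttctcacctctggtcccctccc
Sema3g: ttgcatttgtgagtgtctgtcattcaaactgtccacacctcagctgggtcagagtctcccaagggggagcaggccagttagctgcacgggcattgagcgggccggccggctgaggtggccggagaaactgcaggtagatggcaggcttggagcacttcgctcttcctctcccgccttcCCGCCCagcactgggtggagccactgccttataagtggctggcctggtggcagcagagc
Plxnd1: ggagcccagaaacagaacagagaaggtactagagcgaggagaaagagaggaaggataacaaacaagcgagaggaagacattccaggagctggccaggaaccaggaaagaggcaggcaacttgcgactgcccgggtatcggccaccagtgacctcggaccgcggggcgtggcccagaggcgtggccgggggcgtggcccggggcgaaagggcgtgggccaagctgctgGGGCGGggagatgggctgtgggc
The next 3 belong to members higher in EVP, a receptor for B-class ephrins (chr16:21204545-21204754, plus strand), an A-class ephrin (chr10:80179232-80179481, plus strand) and a class A plexin (chrX:74328816-74329065, plus strand).
Ephb3: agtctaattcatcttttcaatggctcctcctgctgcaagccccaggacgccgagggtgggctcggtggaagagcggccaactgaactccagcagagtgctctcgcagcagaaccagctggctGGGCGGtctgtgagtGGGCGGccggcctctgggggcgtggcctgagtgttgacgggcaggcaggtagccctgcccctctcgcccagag
Efna2: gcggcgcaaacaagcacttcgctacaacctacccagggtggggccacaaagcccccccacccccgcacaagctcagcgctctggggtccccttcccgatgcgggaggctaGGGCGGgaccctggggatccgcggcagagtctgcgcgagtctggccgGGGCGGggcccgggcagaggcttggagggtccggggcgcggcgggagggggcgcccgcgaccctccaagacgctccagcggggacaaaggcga
Plxna3: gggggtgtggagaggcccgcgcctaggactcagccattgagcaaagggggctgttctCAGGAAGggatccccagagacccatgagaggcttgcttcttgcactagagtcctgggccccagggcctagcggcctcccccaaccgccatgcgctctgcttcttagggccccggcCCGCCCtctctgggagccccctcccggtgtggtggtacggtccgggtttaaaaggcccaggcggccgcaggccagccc

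The GC box stood in 5 of these 6 sequences and CAGGAAG in that of *Plxna3*, while the stretch before *Robo4* held none of the 6 strings. Over 250 bases before the RefSeq start, which 54 of the 63 members have in the table, the GC box was present in 84.2% of the windows of members higher in EVP, 83.3% of those of members higher in D and 54.6% of those of members called in neither direction, against 32.7% of all promoters. The string thus did not separate the directions. CAGGAAG was present in 21.1%, 5.56% and 9.09% of these windows and in 10.8% of all promoters, with 4 windows in the first group and 1 in the second. That 1 window is the one of *Robo4*, where the string lies past the GENCODE start and so outside the stretch shown. These are matches of letters and were not tested as binding sites.

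Between EVP and D, 35 of the 63 members differed at an adjusted p under 0.05 in limma, 19 higher in EVP and 16 higher in D. Over all 25549 genes tested this threshold was passed by 19%, in favor of EVP for 11.6% and of D for 7.46%. No value of one population overlapped those of the other for 33 members, against 17.7% of all genes, and 32 members met both criteria. Every family had a called member, and 6 of the 11 (both kinds of semaphorins, the plexins, the ephrin-A ligands and the EphA and EphB receptors) had called members in both directions, so that one gene was high in EVP and a relative was high in D. For the EphA receptors this rests on *Epha1*, whose difference is uncertain for the overlap given below, and without it the number of families is 5. For the EphB receptors the EVP side rests on *Ephb2* and *Ephb3*, below the minimum in D, so it is partly built into their selection. Among the 33 ligands, 13 were higher in EVP and 9 in D, and among the 30 receptors 6 were higher in EVP and 7 in D. The median log2 fold change of EVP over D was 1.17 over the members and 0.46 over all genes tested. Of the 57 members that reached the minimum in each population, 31 (54.4%) were called, 15 higher in EVP and 16 in D, against 22.4% of the 17896 genes of the same kind. Of the 35 calls DESeq2 kept 35. edgeR with TMM lost *Slit2*, *Sema3d*, *Sema5a*, *Sema6c*, *Ntn4* and *Plxna1*. Subtraction of the olfactory receptor background, an alternative chosen after seeing the data, lost *Sema4b*, *Sema4c*, *Ntn1*, *Ntn4* and *Plxna1*, and quantile normalization lost *Sema6c*, *Ntn4* and *Plxna1*.

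**Figure D1:**
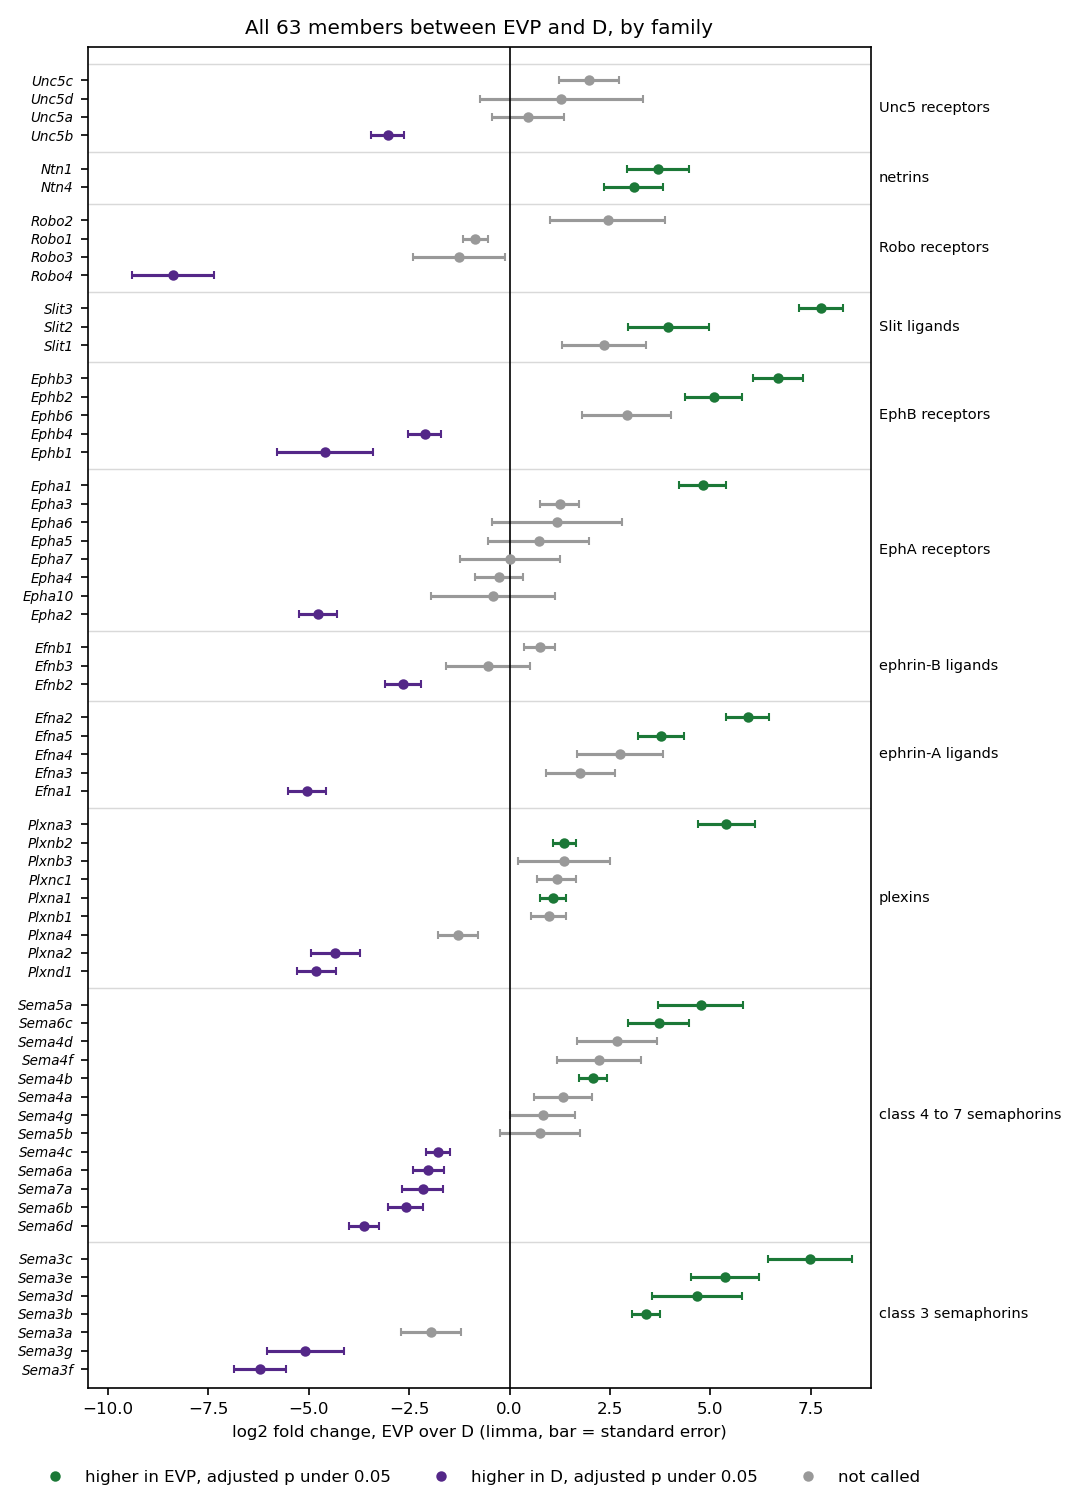
Log2 fold change of EVP over D for each of the 63 members (limma, bars are standard errors, n = 5 libraries per population), grouped by family; green points are called higher in EVP, purple points higher in D and grey points are not called. The 19 members higher in EVP and the 16 higher in D are spread over the families, from *Robo4* at -8.39 to *Slit3* at 7.77.

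*Robo4*, the Robo receptor of endothelium that stabilizes vessels (gene at chromosome 9, 37401897 to 37415115, in GRCm38 as all coordinates here), had the largest log2 fold change of all members, while by the ratio of means *Slit3* exceeded it. Its normalized counts were 14.04, 1.31, 13.9, 109 and 222 in EVP replicates 1 to 5, 6146, 1902, 1617, 1898 and 134 in TA and 7377, 8538, 8633, 11656 and 8440.4 in D. All D libraries lay above all TA libraries, and TA replicate 5 lay within the range of EVP. The mean in D was 124-fold that in EVP (log2 fold change -8.39, SE 1.03, adjusted p = 9.18e-06). The sum of the 12 pan-endothelial markers, given beside it because it moved in the same direction, was 42.2-fold higher in D than in EVP, and its part in the result was not tested. The other Robo receptors, which are better known from neurons, were not called between EVP and D. *Robo1* read 174 ± 61.4, 348 ± 47.9 and 321 ± 132 (SD, n = 5 each) in EVP, TA and D, and it was called in no comparison.

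The called Slits differed in the other direction from *Robo4*. *Slit3* (chromosome 11, 35121224 to 35708507) read 1871, 2779, 2581, 2713 and 1071 in EVP, 259, 956, 509, 799 and 674 in TA and 17.8, 22.9, 3.13, 14.3 and 1.81 in D. The 3 populations did not overlap, and EVP exceeded D 184-fold (log2 fold change 7.77, SE 0.55, adjusted p = 1.74e-08). *Slit2* was higher in EVP as well (log2 fold change 3.96, SE 1.01, adjusted p = 0.00885), with 2107, 349, 96.5, 681 and 109 against 273, 24.5, 25.01, 2.25 and 9.07. There the populations overlapped, since D replicate 1 lay within the EVP range, and EVP replicate 1 held 63.05% of the counts of EVP. *Slit1* stayed at 0 to 37.3 in EVP and 0 to 19.2 in D and was not called.

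Among ephrins of class A, ligands anchored by a lipid, *Efna1* was high in D while *Efna2* and *Efna5* were high in EVP. *Efna1*, which is induced by inflammatory cytokines in endothelium, read 112, 249.5, 348, 281 and 432 in EVP and 6799.9, 9279, 7699, 9977 and 9549 in D, without overlap (30.4-fold, log2 fold change -5.04, SE 0.47, adjusted p = 4.88e-07). *Epha2*, the receptor through which ephrin-A1 acts on endothelial cells, rose alongside it, from 21.1, 24.8, 27.00, 77.5 and 30.4 in EVP to 917, 597, 684, 1398 and 1131 in D (26.1-fold, log2 fold change -4.77, SE 0.48, adjusted p = 9.36e-07). In the opposite direction, *Efna5* read 576, 1067, 1579, 959 and 459.8 in EVP and 111, 122, 11.7, 59.3 and 83.4 in D (log2 fold change 3.78, SE 0.57, adjusted p = 9.2e-05). *Efna2* read 59.7 to 115 in EVP and at most 2 reads in any D library, so that EVP was at least 33.2-fold higher against a floor of 3 reads per library (adjusted p = 3.52e-07). *Epha1* was higher in EVP in the table (163 ± 44.99 against 6.47 ± 5.996, log2 fold change 4.81, SE 0.58, adjusted p = 8.24e-06). Its exons overlap *Zyx* on the opposite strand, which has a mean of 4850 normalized counts, and whether reads were counted by strand is not stated, so this difference is uncertain.

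Of the EphB receptors, *Ephb3* and *Ephb2* were higher in EVP and *Ephb1* and *Ephb4* in D. *Ephb3* read 239, 243, 218, 398 and 262 in EVP, 171, 105, 135, 77.6 and 194 in TA and 12.4, 0, 0.782, 3.76 and 0 in D. Each population was apart from the others, and EVP was 80.5-fold above D (log2 fold change 6.69, SE 0.62, adjusted p = 4.52e-07). The size of this ratio is uncertain, since the D mean was 3.38 and 3 of 5 D libraries had at most 3 reads. *Ephb3* also passed the minimum only through EVP and TA, as did *Ephb2*. *Ephb2* read 56.7 to 165 in EVP and 0 to 17.8 in D (log2 fold change 5.08, SE 0.70, adjusted p = 3.28e-05), and *Ephb1* 0.691 to 35.1 and 137 to 328 (log2 fold change -4.60, SE 1.20, adjusted p = 0.0102).

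The ephrin and receptor that serve as markers of arteries and veins both rose in D. *Efnb2* (chromosome 8, 8617434 to 8661242) read 277, 276, 263, 137 and 139 in EVP, 395, 164, 797, 404 and 118 in TA and 813, 2173, 1298, 1726 and 959 in D (6.39-fold between EVP and D, log2 fold change -2.65, SE 0.44, adjusted p = 0.000246). *Ephb4* (chromosome 5, 137350109 to 137378669) read 298, 169.8, 236, 346 and 266 in EVP, 1003, 437, 122, 334 and 337 in TA and 1208, 1061, 687, 1722 and 1094 in D (4.39-fold, log2 fold change -2.11, SE 0.41, adjusted p = 0.00103). For both genes D lay apart from EVP, and the mean of TA lay between them. Part of an *Ephb4* exon is shared with *Zan* on the opposite strand, whose mean was 24.4 normalized counts. *Efnb1*, a ligand of the same class, read 403 ± 189 in EVP and 235 ± 87.03 in D and was not called (log2 fold change 0.75, adjusted p = 0.241).

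**Figure D2:**
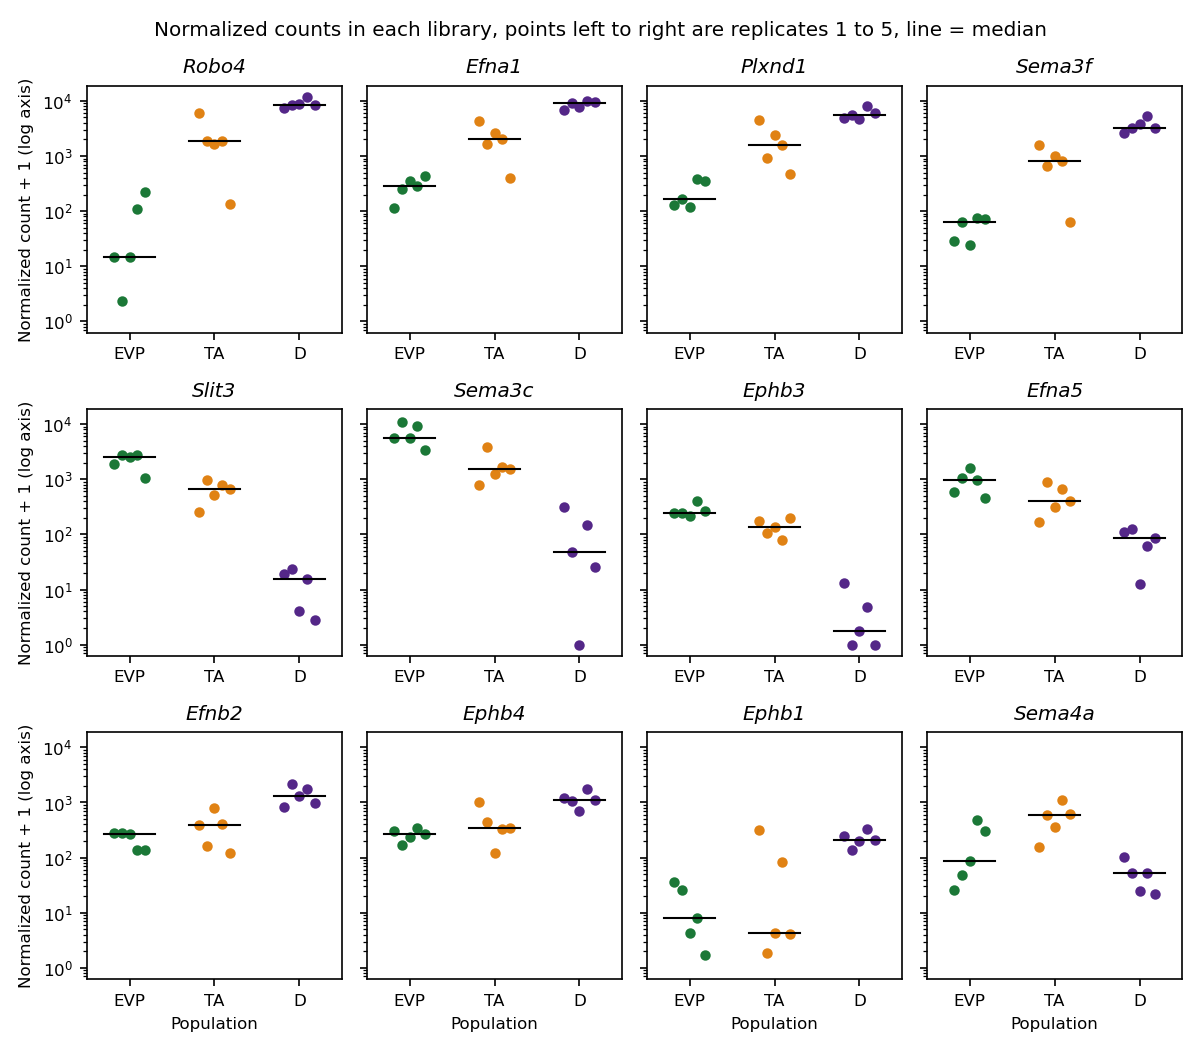
Normalized counts plus 1, on a log axis, in each library for 12 members, with points from left to right for replicates 1 to 5 and the line at the median. *Robo4*, *Efna1*, *Plxnd1* and *Sema3f* rise from EVP to D with TA replicate 5 near EVP, *Slit3*, *Sema3c*, *Ephb3* and *Efna5* fall, *Efnb2* and *Ephb4* both rise, and *Sema4a* is highest in TA.

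Of the 7 secreted semaphorins, 4 were higher in EVP and 2 in D. *Sema3c*, a ligand of the neuropilins, was the most abundant of them in EVP per length, and its normalized counts were 5523, 10796, 5632, 9165 and 3321, against 793, 3781, 1225, 1688 and 1532 in TA and 313, 47.3, 0, 149 and 24.2 in D. Every EVP value exceeded every D value (64.5-fold, log2 fold change 7.47, SE 1.05, adjusted p = 3.91e-05). *Sema3f*, a repulsive ligand of neuropilin-2, went the other way, with 28.1, 61.4, 22.9, 72.7 and 71.9 in EVP, 1574, 669.9, 1000.03, 812 and 61.6 in TA and 2640.1, 3198, 3788, 5246 and 3157 in D. Its mean in D was 70.1-fold that in EVP (log2 fold change -6.22, SE 0.64, adjusted p = 1.28e-06). *Sema3g* was also higher in D (59.03 to 319 against 0 to 36.8, log2 fold change -5.09, SE 0.97, adjusted p = 0.000806). *Sema3b*, *Sema3d* and *Sema3e* were higher in EVP, with log2 fold changes of 3.40, 4.66 and 5.36 and adjusted p of 1.14e-06, 0.00586 and 0.00014. *Sema3a*, a ligand of neuropilin-1, read 42.5 to 506 in EVP and 213 to 822 in D and was not called between them (adjusted p = 0.0872).

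*Sema3b* and *Sema3f* lie 72270 bases apart on the same strand of chromosome 9 (chromosome 9, 107597674 to 107609229 and chromosome 9, 107681500 to 107710475) and differed in opposite directions, at 3.40 and -6.22 on the log2 scale. *Efna1*, *Efna3* and *Efna4* form a run on chromosome 3 with gaps of 32756 and 10424 bases, and here too *Efna1* was higher in D (-5.04) while *Efna3* and *Efna4* read 1.76 and 2.76 and were not called between EVP and D. *Robo3* lies 553 bases from *Robo4* on the opposite strand and read 0 to 25.5 in D, where *Robo4* read 7377 to 11656. These neighbors were looked at after their values were seen.

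Of the membrane-bound semaphorins, 5 were higher in D and 3 in EVP. *Sema6d*, a ligand of plexin A1, read 449, 178, 289, 352 and 454 in EVP, 1758, 462, 1888, 1311 and 919.8 in TA and 2061, 3596, 5791, 5262 and 4676 in D, and no value of one population reached into another (12.4-fold between EVP and D, log2 fold change -3.62, SE 0.38, adjusted p = 1.54e-06). *Sema6a*, *Sema6b*, *Sema4c* and *Sema7a* were also higher in D, *Sema6a* with a log2 fold change of EVP over D of -2.02 and *Sema6b* with -2.58 (adjusted p of 0.000889 and 0.000265). *Sema4b*, *Sema5a* and *Sema6c* were higher in EVP (log2 fold change 2.08, adjusted p = 0.000213 for *Sema4b* and log2 fold change 4.76, adjusted p = 0.00296 for *Sema5a*). The 906 counts of *Sema5a* in EVP replicate 1 were the highest of any library, and without that library its adjusted p was 0.0119. edgeR did not call it (adjusted p = 0.0999).

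Plexins, the receptors of semaphorins, followed the same division. *Plxnd1*, the plexin of endothelium that binds Sema3E and guides sprouts (chromosome 6, 115954811 to 115995005), read 129.9, 169, 119, 382 and 353 in EVP, 4449, 919, 2401, 1615 and 473 in TA and 4899.9, 5573, 4695, 8069.8 and 6077 in D (25.5-fold, log2 fold change -4.81, SE 0.48, adjusted p = 9.34e-07). Its ligand gene *Sema3e* was lowest where *Plxnd1* was highest, at 0 to 46.7 in D against 87.1 to 400.3 in EVP. *Plxna2* read 495, 255, 97.4, 211 and 112 in EVP and 4205, 2861, 3958, 4921 and 4311 in D (log2 fold change -4.34, SE 0.61, adjusted p = 3.81e-05). *Plxna3* was higher in EVP (99.6 to 200.1 against 0 to 20.6, log2 fold change 5.41, SE 0.71, adjusted p = 2.04e-05). *Plxnb2*, which receives class 4 semaphorins, was expressed in each library, with a modest difference (1957 ± 178 in EVP and 789.8 ± 248 in D, log2 fold change 1.36, SE 0.29, adjusted p = 0.00199). *Plxna1* was called higher in EVP (adjusted p = 0.0225) but not without EVP replicate 2, D replicate 2 or D replicate 5 (adjusted p up to 0.0693).

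Both netrins were higher in EVP, and of their Unc5 receptors *Unc5b* was higher in D. *Ntn1* read 295, 628, 248, 684 and 122 in EVP and 2.75, 52.2, 50.8, 110.4 and 8.46 in D (8.80-fold, log2 fold change 3.69, SE 0.77, adjusted p = 0.00191), and *Ntn4*, a netrin of basement membranes, 35.96 to 108 and 1.81 to 29.7 (log2 fold change 3.09, SE 0.74, adjusted p = 0.00543). Neither netrin was called after subtraction of the background (adjusted p of 0.0528 and 0.286), and *Ntn4* was not called by edgeR (0.0539) or with quantile normalization (0.353). *Unc5b*, the endothelial receptor of the family, rose from 59.7, 102, 169, 130.3 and 225 in EVP to 563, 1144, 1186, 1852 and 818 in D (8.10-fold, log2 fold change -3.03, SE 0.41, adjusted p = 2.45e-05). *Unc5a*, *Unc5c* and *Unc5d* were not called (adjusted p of 0.0797 for *Unc5c* and 0.769 for *Unc5d*). Exons of *Unc5a* overlap *Hk3* on the opposite strand, and *Sema4c*, *Plxna1*, *Efna3*, *Ephb1*, *Plxna4* and *Unc5c* have low antisense or noncoding partners with means of 1.84 to 22.7 normalized counts, from which their reads cannot be told apart without strand.

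**Figure D3:**
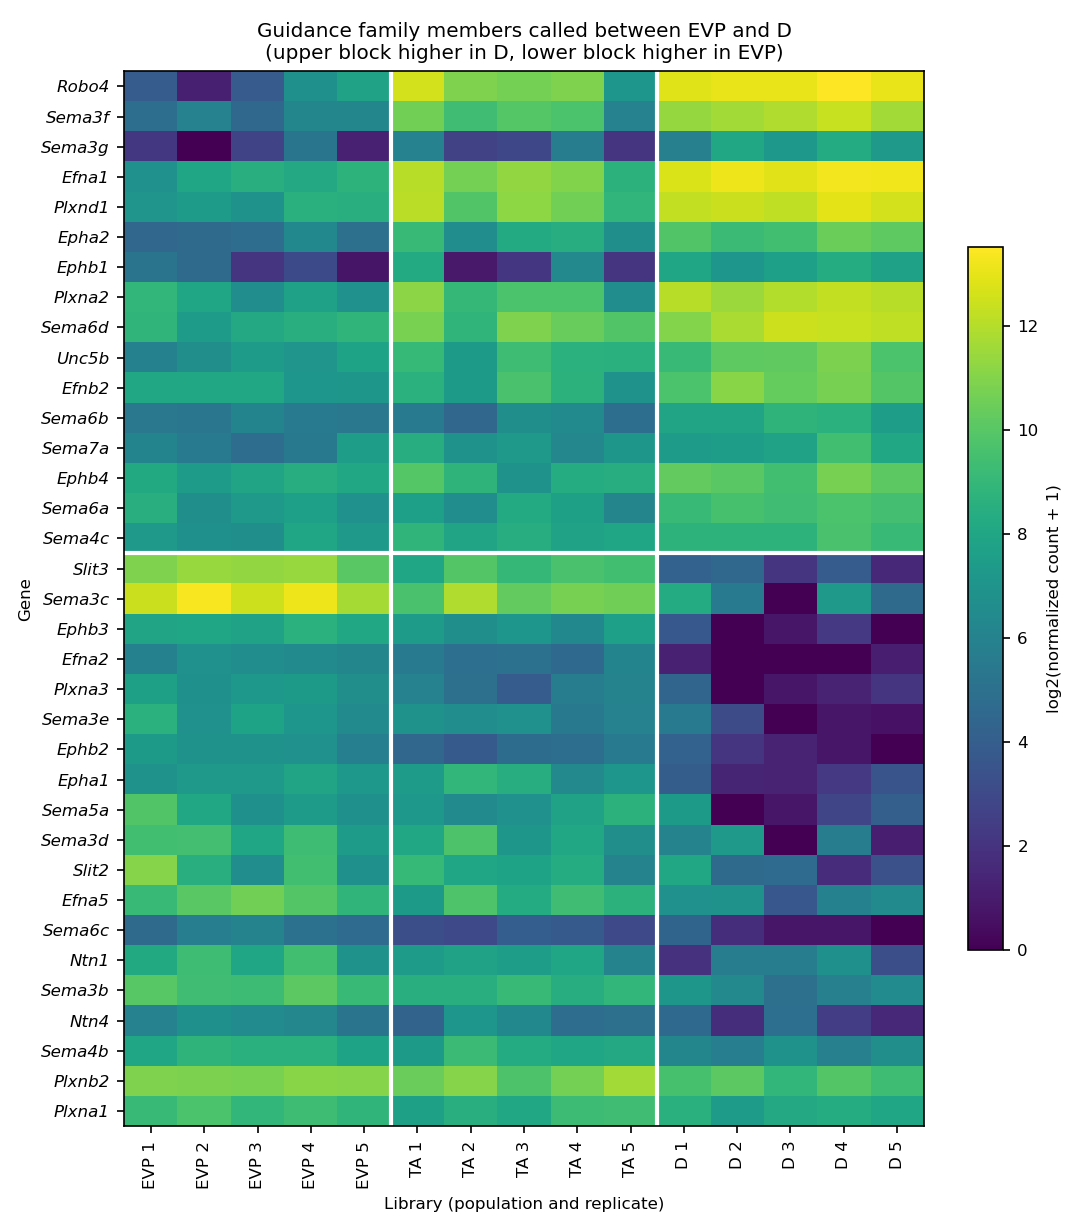
Log2(normalized count + 1) of the 35 members called between EVP and D in each of the 15 libraries, with the 16 higher in D above and the 19 higher in EVP below. The lower block is darkest in the D libraries, and in the upper block of the genes with the largest changes TA replicate 1 resembles D and TA replicate 5 resembles EVP.

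The 16 members higher in D shared their direction with the endothelial markers, and the 19 higher in EVP with the fibroblast markers. The members were grouped by this direction, so sharing it with a marker list was fixed by the grouping and links them to no cell type. Of the 12 pan-endothelial markers, which include *Pecam1* and *Kdr* of the sort, 11 were higher in D than in EVP. Of the 12 fibroblast markers 12 were higher in EVP, with a sum 418-fold higher. Markers of Schwann cells and nerve (5 of the 10 tested were called, 4 of them higher in EVP) summed to 1474 to 7906 in EVP, 1901 to 3668 in TA and 662 to 990.4 in D. Keratinocyte markers, of which 6 of 8 were higher in EVP, summed to 1712 to 9106 in EVP and 93.9 to 2906 in D. Mural markers, 5 of 12 higher in EVP and 2 in D, summed to 7491 to 34875 in EVP, 6272 to 158506 in TA and 5249 to 10961 in D. No marker of these lists lacked reads in all libraries of a population. The part of each cell type in the members' levels was not tested.

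**Figure D4:**
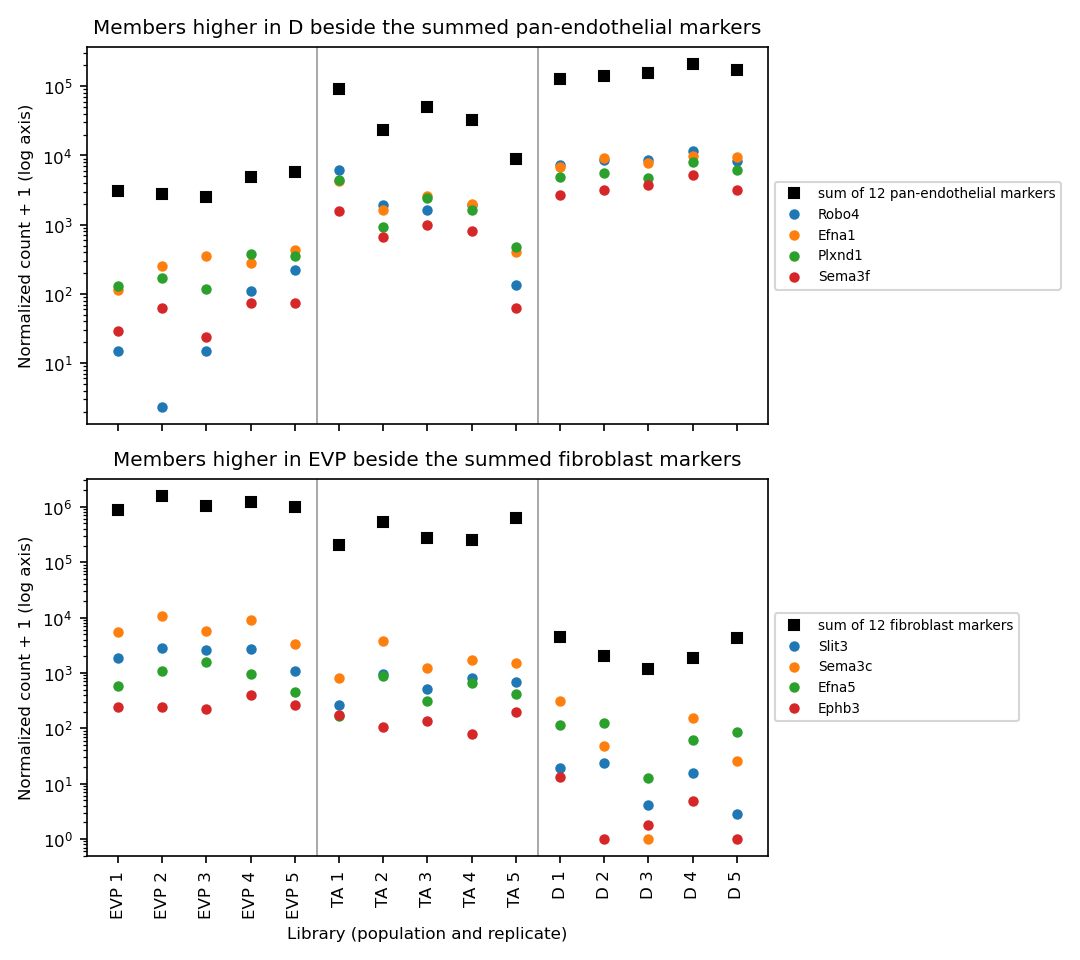
Normalized counts plus 1, on a log axis, in each library. The upper panel shows the sum of 12 pan-endothelial markers (black squares) with *Robo4*, *Efna1*, *Plxnd1* and *Sema3f*, and the lower panel the sum of 12 fibroblast markers with *Slit3*, *Sema3c*, *Efna5* and *Ephb3*. In the upper panel TA replicate 5 is the lowest TA library for the sum and for all 4 members, and in the lower panel all values are lowest in D.

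Between EVP and TA, which differ in the sort by CD31, 7 of 63 members were called, all higher in TA. The background over all genes was 3.5%, of which 1.94% stood for genes higher in TA and 1.56% for genes higher in EVP. The 7 were *Robo4*, *Sema3f*, *Plxnd1*, *Epha2*, *Efna1*, *Sema6d* and *Unc5b*, each of which was also higher in D than in EVP, a comparison that shares the EVP libraries. Their log2 fold changes of EVP over TA were -5.70, -3.56, -2.87, -2.78, -2.72, -1.79 and -1.62, with SE of 1.03, 0.64, 0.48, 0.48, 0.47, 0.38 and 0.41. The adjusted p ranged from 0.00399 for *Plxnd1* to 0.035 for *Unc5b*. The values of *Plxnd1*, *Epha2* and *Sema6d* did not overlap between EVP and TA. Over all members 10 did not overlap, against 4.29% of all genes, and these included *Slit3*, *Sema3b* and *Ephb3*, which were lower in TA but did not pass the threshold (adjusted p of 0.0787, 0.193 and 0.494). An unadjusted p under 0.05 was reached by 19 members, and the share of all genes at that p is not given here. The median log2 fold change of EVP over TA was -0.14 over the members and 0.09 over all genes. Without replicate 1 of each population none of the 7 passed (adjusted p from 0.0659 to 0.166), and after subtraction of the background *Robo4* and *Efna1* still did. Over all genes the calls fell from 893 to 104 and 407 in these fits. *Unc5b* was lost without any one of EVP replicates 1 to 4 or TA replicates 1, 3 and 4 (adjusted p up to 0.0988).

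Between TA and D, 38 of 63 members were called, 23 higher in TA and 15 higher in D. The same threshold called 12.5% of all genes, 8.21% higher in TA and 4.31% higher in D. Of the 57 members that reached the minimum in each population, 34 (59.6%) were called, 19 higher in TA and 15 in D, against 15.2% of genes of the same kind. No overlap was seen for 20 members and 9.25% of all genes, and the median log2 fold change of TA over D was 1.14 over the members and 0.24 over all genes. Of the 19 members higher in EVP than in D, 17 were also higher in TA than in D, among them *Slit3* (log2 fold change 5.94, SE 0.55, adjusted p = 1.12e-06), *Ephb3* (log2 fold change 5.67, SE 0.62, adjusted p = 8.23e-06), *Sema3c* (log2 fold change 5.46, SE 1.05, adjusted p = 0.0019) and *Efna2* (at least 15.5-fold, adjusted p = 1.09e-05). Of the 16 higher in D than in EVP, 13 were also higher in D than in TA, among them *Efna1* (log2 fold change -2.32, SE 0.47, adjusted p = 0.00295), *Sema6b* (log2 fold change -2.53, SE 0.44, adjusted p = 0.000769) and *Sema6a* (log2 fold change -2.15, SE 0.39, adjusted p = 0.00116). These counts share the D libraries with the comparison of EVP and D. *Robo4* was not called here (log2 fold change -2.69, adjusted p = 0.107), although all D values lay above all TA values.

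A group of 6 members was called higher in TA than in D and not between EVP and D: *Efna3*, *Epha3*, *Plxnc1*, *Sema4a*, *Sema4d* and *Unc5c*. None of the 6 was called between EVP and TA, so TA was not separated from EVP. For *Epha3*, *Plxnc1*, *Sema4d* and *Unc5c* the log2 fold changes of EVP over D were 1.25, 1.17, 2.67 and 1.98. These 4 passed between EVP and D in some fits that left out 1 library. *Efna3* fell below the minimum in D, so its difference from D was partly built into its selection. *Sema4a*, a semaphorin of immune cells and endothelium, read 24.6, 48.3, 84.3, 484 and 303 in EVP, 153, 588, 363, 1113 and 617 in TA and 103, 50.6, 23.4, 52.6 and 21.2 in D. TA was apart from D (log2 fold change 3.43, SE 0.73, adjusted p = 0.00401) and overlapped with EVP (log2 fold change -2.10, adjusted p = 0.14). *Plxnc1*, a semaphorin receptor of leukocytes and melanocytes, read 136 to 924 in TA and 58.6 to 161 in D (log2 fold change 2.22, SE 0.49, adjusted p = 0.00499), and *Sema4d*, known from lymphocytes, 13.4 to 292 and 0 to 48.1 (log2 fold change 3.32, SE 0.99, adjusted p = 0.0348). *Epha3* read 411 to 1373 in TA and 46.6 to 478 in D (log2 fold change 1.77, SE 0.49, adjusted p = 0.022). Beside these values stand the leukocyte markers, 11 genes that summed to 2717 to 13001 in EVP, 7798 to 48312 in TA and 3852 to 10026 in D, and the melanoma markers, at 30780 to 70426, 72080 to 182658 and 19171 to 50434. Of these, 5 of 11 leukocyte and 8 of 8 melanoma markers were called higher in TA than in D. So were 12 of 12 fibroblast, 8 of 8 keratinocyte, 7 of 12 mural and 5 of 10 tested Schwann and nerve markers. In the other direction, 9 of 12 pan-endothelial markers were higher in D. No single marker list is thus set apart by this direction. Their part in the 6 members' levels was not tested. Conversely, *Sema3a* and *Plxna4* were called higher in D than in TA and not between EVP and D (log2 fold change -2.68, SE 0.75, adjusted p = 0.0254 and log2 fold change -1.81, SE 0.51, adjusted p = 0.0246).

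Of the 38 calls between TA and D, 25 held in each of 15 fits that left out 1 library. The other 13 were *Ephb1*, *Slit2*, *Ntn4*, *Unc5b*, *Efna3*, *Ntn1*, *Sema3a*, *Sema3g*, *Sema4d*, *Plxna4*, *Sema3d*, *Unc5c* and *Epha3*, and in the fit least favorable to each the adjusted p was 0.0592 to 0.117. For *Ephb1* 11 of the 15 fits lost the call. Its TA values of 310.2, 0.879, 3.35, 81.5 and 3.11 were spread over a 353-fold range. Of the 38 calls, subtraction of the background kept 13, quantile normalization 24 and edgeR with TMM 25. *Epha3* lost the call without TA replicate 3 or TA replicate 5, and *Unc5c* without TA replicate 3, D replicate 2 or D replicate 4.

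The mean of TA lay between those of EVP and D, on the log2 scale, for 41 of 63 members (65.1%), and for 46.0% of all genes tested. For the members called between EVP and D this held for 33 of 35 (94.3%), beside 86.7% of all genes called there. With 0 for the EVP mean and 1 for the D mean, the median position of TA was 0.21 for members higher in EVP and 0.51 for members higher in D. The TA libraries were far from uniform. For the 16 members higher in D, TA replicate 1 was the highest of the TA libraries for 11 and TA replicate 5 the lowest for 8, and the ratio of the highest to the lowest TA library was 45.9 for *Robo4*, 25.5 for *Sema3f* and 10.6 for *Efna1*. The pan-endothelial sum in TA replicates 1 to 5 was 89932, 23199, 49728, 32516 and 8793, with the same libraries at the top and the bottom. For the 19 members higher in EVP, TA replicates 2 and 5 were the highest TA library for 7 each and the lowest for 2 and 4. These libraries had the largest fibroblast sums of TA (201319, 540604, 270477, 255204 and 630233 in replicates 1 to 5). TA replicate 5 also had the largest mural sum of TA, 158506, and TA replicate 2 the largest keratinocyte sum, 80831. The part of these sums in the members' levels was not tested.

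Levels were compared between genes as normalized counts per kb of exon, since longer genes collect more reads. In D, *Efna1* stood highest of all members at 4733 ± 738 (SD, n = 5), followed by *Robo4* at 1684 ± 303, *Plxnd1* at 803 ± 185, *Sema3f* at 694 ± 193 and *Sema6d* at 405 ± 140.5 per kb. The ranges of *Efna1* and *Robo4* touched no other member's, while *Plxnd1* and *Sema3f*, and *Sema3f* and *Sema6d*, overlapped. Averaged over the D libraries, *Efna1* made up 99.4% of the ephrin-A sum, *Robo4* 98.5% of the Robo sum, *Unc5b* 91.1% of the Unc5 sum, *Ephb4* 85.8% of the EphB sum, *Sema3f* 84.5% of the class 3 sum and *Epha2* 79.4% of the EphA sum. In 9 of the 11 families the range of the leading gene in D did not touch that of the next. In EVP, *Sema3c* led all members at 965 ± 424 per kb, followed by *Slit3* at 363 ± 120.1, *Plxnb2* at 253 ± 23.1 and *Efna5* at 230.2 ± 110.0. The ranges of *Slit3*, *Plxnb2* and *Efna5* overlapped.

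The leading gene differed between EVP and D in 9 families, and in 6 of them it did so whichever library was left out, from *Sema3c* to *Sema3f*, from *Sema4b* to *Sema6d*, from *Plxnb2* to *Plxnd1*, from *Efna5* to *Efna1*, from *Efnb1* to *Efnb2* and from *Epha3* to *Epha2*. In EVP, however, *Sema4b*, *Epha3* and *Efna5* were not separated from the next genes, *Sema4a*, *Epha1* and *Efna1*. Their ranges overlapped, and the order held in 3, 3 and 4 of the 5 EVP libraries. The Slits changed from *Slit3* to *Slit2*, at 2.63 ± 4.55 per kb in D, the Robo receptors from *Robo2* to *Robo4* and the Unc5 receptors from *Unc5d* to *Unc5b*. *Ephb4* led the EphB receptors and *Ntn1* the netrins in each population. In TA the leading genes were *Sema3c*, *Sema6d*, *Plxnd1*, *Efna1*, *Efnb1*, *Epha3*, *Ephb4*, *Slit3*, *Robo4*, *Ntn1* and *Unc5b*, and only for Slits did the ranges of the leading gene and the next not overlap. Without TA replicate 1 or without TA replicate 3, *Sema4a* led the class 4 to 7 semaphorins and *Plxnb2* the plexins in TA, and without D replicate 1 *Slit3* led the Slits in D. The lead of *Robo2* and *Unc5d* in EVP rested on EVP replicate 1, without which *Robo4* and *Unc5b* led.

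**Figure D5:**
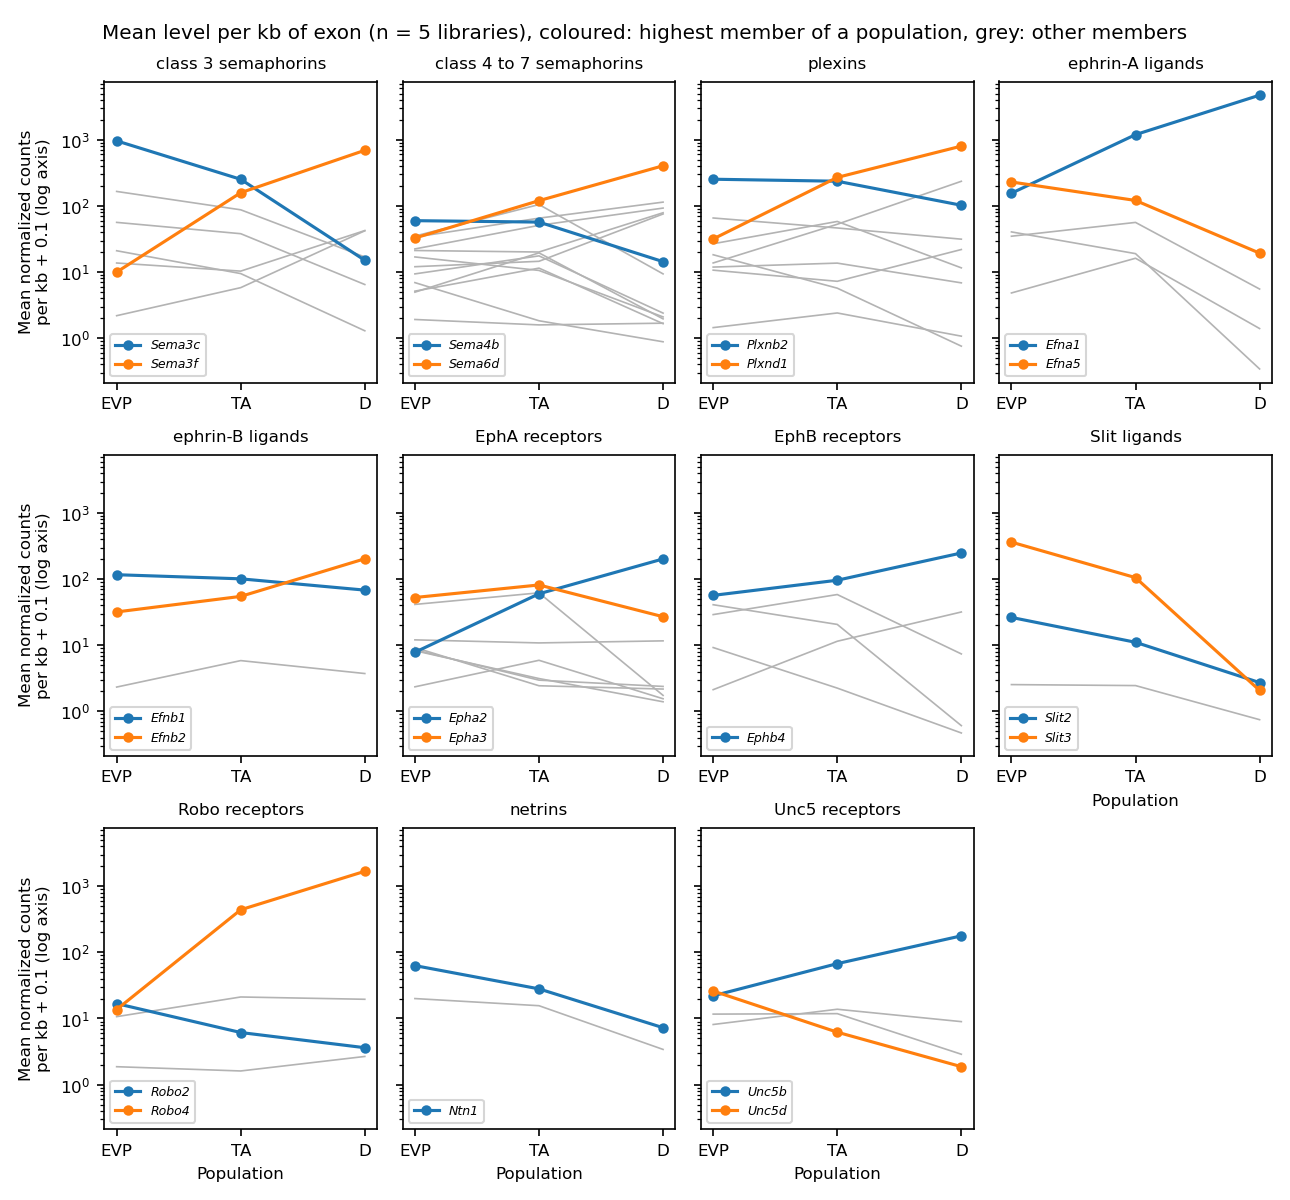
Mean normalized counts per kb of exon plus 0.1, on a log axis, in EVP, TA and D for every member (n = 5 libraries per population), with the member that leads its family in a population in color and the others in grey. The lines of *Sema3c* and *Sema3f*, *Plxnb2* and *Plxnd1*, *Efna5* and *Efna1*, and *Efnb1* and *Efnb2* cross between EVP and D.

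No comparison called the remaining 20 members, *Efna4*, *Efnb1*, *Efnb3*, *Epha4*, *Epha5*, *Epha6*, *Epha7*, *Epha10*, *Ephb6*, *Plxnb1*, *Plxnb3*, *Robo1*, *Robo2*, *Robo3*, *Sema4f*, *Sema4g*, *Sema5b*, *Slit1*, *Unc5a* and *Unc5d*. Several that are best known from neurons were measured mainly in the library with the high background. EVP replicate 1 held 97.8% of the EVP counts of *Unc5d*, 95.8% of those of *Epha6*, 95.2% of *Epha10*, 94.4% of *Epha7*, 89.5% of *Epha5* and 82.4% of *Robo2*. *Unc5d* read 1169, 26.1, 0, 0 and 0.691 in EVP, and its high value stood in that 1 library. *Robo2* read 281, 4.90, 0.782, 6.01 and 5.44 in D, again with a high replicate 1. *Robo1* and *Epha4* read 106 to 242 and 28.3 to 176 normalized counts in EVP and 172 to 517 and 65.9 to 111 in D, above the olfactory receptor level in 14 and 12 of the 15 libraries, and both lay below it in EVP replicate 1.

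Other genes of these pathways were taken from a list of 71 co-receptors, further ligands and intracellular partners, all of which were found and tested. Between EVP and D 39 were called, 21 higher in EVP and 18 higher in D, beside the 19% of all genes given above. Between EVP and TA 7 (9.86%) were called, 5 in favor of TA and 2 of EVP, beside 3.5% of all genes. Between TA and D 33 (46.5%) were called, 19 higher in TA and 14 in D, beside 12.5%. Both neuropilins, the co-receptors of class 3 semaphorins and of VEGF-A, were higher in D. *Nrp1* read 2159, 2689.8, 2275, 3638 and 2837 in EVP and 7738, 8001, 11254, 15367 and 13241 in D (log2 fold change -2.004, SE 0.25, adjusted p = 1.26e-05), and *Nrp2* 386, 208, 279, 402 and 465 and 2677, 2252, 2259, 3175 and 3011 (log2 fold change -2.98, SE 0.29, adjusted p = 6.06e-07). *Nrp2* was also higher in TA than in EVP (log2 fold change -1.89, adjusted p = 0.0024).

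The largest difference in this list was that of *Arhgef15*, an endothelial protein that acts after Eph receptors, at 13.1 to 63.2 in EVP and 1713 to 3403 in D (log2 fold change -6.22, SE 0.75, adjusted p = 8.23e-06). *Myo10*, a motor of filopodia (log2 fold change -3.73, adjusted p = 1.05e-07), and *Ablim3*, an actin-binding protein (log2 fold change -4.73, adjusted p = 6.49e-05), were higher in D as well. Each of these 3 genes was also higher in TA than in EVP, with adjusted p of 0.0186, 0.00134 and 0.0249. *Flrt2*, a membrane ligand of Unc5 receptors, was higher in EVP than in both other populations, at 3757, 3423, 2438, 5147 and 1758 in EVP, 583, 630.3, 123, 902 and 862 in TA and 111, 147, 103, 77.4 and 110.0 in D (against D log2 fold change 4.83, SE 0.44, adjusted p = 3.64e-07, against TA log2 fold change 2.59, adjusted p = 0.00453). *Dpysl3*, a collapsin response mediator protein, was the other gene higher in EVP than in TA (log2 fold change 1.63, adjusted p = 0.00552). *Draxin*, *Islr2* and *Pak1* were among the 5 largest differences and higher in EVP than in D, at 4.89, 4.76 and 4.88 on the log2 scale (adjusted p of 0.00125, 1.53e-05 and 0.00025). *Neo1* and *Rgma*, a netrin and RGM receptor and its ligand, were both higher in EVP (log2 fold change 4.04, adjusted p = 0.00445 and log2 fold change 4.60, adjusted p = 0.000149), and so were *Enah* (log2 fold change 3.49, adjusted p = 9.89e-06), *Limk1* (log2 fold change 3.94, adjusted p = 8.79e-05) and *Gpc1* (log2 fold change 3.16, adjusted p = 0.00029).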

How the data were processed

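RNA of sorted cells was amplified by the study's modified Smart-Seq2 protocol and sequenced as paired reads. The submitters' processing notes and the study's methods name STAR 2.5.3a, the mouse build mm10 (GRCm38), HTSeq-count 0.6.1 with Ensembl release 91 and DESeq2 1.10.1. The deposited signal values are gene counts that the authors divided by 1 size factor per library. The strand setting of the counting is not given in the sources used here. Tables of the authors' own comparisons (log2 fold changes and p-values) were not used.

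Dividing each library by its smallest value above 0 gave whole reads for 100% of values (tolerance 0.02). The test was that of limma 3.58.1 (R 4.3.3) on log2(normalized count + 1) over 25549 genes with a mean of at least 5, in 1 fit of all 15 libraries (trend, two-sided), with Benjamini-Hochberg adjustment over all genes and a threshold of 0.05. Fold changes are on that log2 scale, which understates changes of low genes, and ratios are of mean normalized counts. For EVP against D, EVP against TA and TA against D, limma called 4859, 893 and 3199 genes, and of the count tests run on the recovered reads edgeR 4.0.16 called 3849, 663 and 2570 and DESeq2 1.42.0 called 5547, 1919 and 4225. The fits were tested on simulated data. Against a group without reads, 3 reads per library served as the floor. Exon lengths and overlaps came from GENCODE vM21.

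Members, pathway genes and markers were chosen with earlier results of these data known. Statistics are given for the 6 called members with the largest rise and fall between EVP and D, those called in another comparison, the highest member per length of each family and population, and *Efnb2* and *Ephb4*. Pathway genes are named where called in at least 2 comparisons or among the 5 largest differences. The p-values of *Plxna1* and the log2 fold change of *Efna4* stand outside this rule and were chosen after their values were seen. Alternatives covered the pseudocount, the filter, scaling, array weights, a minimum fold change, leaving out libraries, fits of 2 populations, blocking on replicate number and the count tests. Another alternative, which removed from each library the level of its olfactory receptor genes, was added after seeing the data.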

Additional observations from a re-analysis of the deposited data

Results flagged for a closer look

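In 126 groups of 5 libraries (42 named members in 3 populations), the highest or lowest log2 value was compared with its nearest neighbor. A library stood apart in 4 groups, which is no more than the share of about 1 in 20 that chance gives. *Epha2* in EVP had 77.5 normalized counts in replicate 4, next to 30.4. *Unc5c* in EVP had 769 in replicate 1, next to 106. *Robo2* in D had 281 in replicate 1, next to 6.01. *Sema3f* in TA had 61.6 in replicate 5 as its lowest value, next to 669.9. The high values of *Unc5c* and *Robo2* fall in the libraries with the highest olfactory receptor background of their population, 39.9 and 6.57 normalized counts per kb of exon, and the low value of *Sema3f* in the TA library with the lowest pan-endothelial sum, 8793. The part of these in the values was not tested.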

How the results depend on the processing

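Between EVP and D, 29 to 49 members were called over the alternatives, and limma array weights raised those higher in EVP to 29. Over all genes the array weights raised the calls from 4859 to 7609. With edgeR and TMM the split of 19 and 16 became 13 and 17, and quantile normalization, which moved the median log2 fold change of all genes from 0.46 to -0.05, gave 16 and 18. Between EVP and TA, members higher in EVP numbered 3 with a pseudocount of 8 or in a fit of only these 2 populations. They numbered 1 with quantile normalization or DESeq2. Over all genes, those higher in EVP numbered 621, 387, 418 and 848 in these 4 fits, against 398 in the main fit. DESeq2 called 11 members in all, and 1919 of all genes against 893 in the main fit. Subtracting the background, an alternative chosen after seeing the data, left 2 (*Robo4* and *Efna1*), both higher in TA, and leaving out replicate 1 of every population left 0. Over all genes these alternatives left 407 and 104. Between TA and D, quantile normalization called 24 members (13 higher in TA), edgeR with TMM 25 (13), edgeR with DESeq2 size factors 22 (12), and subtraction of the background 13, with 11 higher in TA and 2 in D. Over all genes these called 2117, 2570, 2508 and 1641, against 3199 in the main fit. For the other pathway genes between EVP and TA, array weights gave 3 higher in TA, the fit of 2 populations 4 with 2 in TA, DESeq2 16 (6 in EVP and 10 in TA), the fit without replicate 1 3 (1 and 2), and subtraction 4 with 2 in TA. Between TA and D, quantile normalization gave 19 with 7 in TA, the fit of 2 populations and edgeR with DESeq2 size factors each 12 in TA, and subtraction 14 (8 and 6). The cause was not tested. Leaving out 1 library at a time gave 34 to 39, 6 to 8 and 27 to 40 members in the 3 comparisons, with 0 to 1 higher in EVP than in TA. Over all genes it gave 4120 to 5152, 429 to 1214 and 2417 to 3501 calls. For the pathway genes between EVP and TA it gave 4 to 10 calls, 2 to 4 in EVP and 2 to 7 in TA, lowest without EVP replicate 2 or 3, and 9 to 16 higher in D than in TA, lowest without TA replicate 2 or D replicate 3.

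The replicate number as a block raised the calls to 39, 8 and 43 members for EVP against D, EVP against TA and TA against D, with 1 higher in EVP than in TA, and the other pathway genes higher in EVP than in TA to 4. Over all genes the block raised the calls to 5710, 1262 and 4047. Correlations of same-numbered libraries ranged from 0.0595 to 0.689, from -0.136 to 0.603 and from -0.00425 to 0.491 in the 3 comparisons. The labels name no pairs, so the main fit did not pair the numbers. Whether libraries of the same number shared an animal or a batch cannot be told from these values. In 12 of 15 cases, none of them replicate 3, a library correlated best with its own number in the other population. Depth limits the low members most: 1 read is worth 3.51 normalized counts in EVP replicate 1 and 0.604 in D replicate 5.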
